A study of Mus musculus with 17 samples.

Results

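The miR-30 family is a group of closely related microRNAs (miRNAs), and its 5p strands, taken from the 5′ arm of each hairpin precursor, were followed here through the differentiation of mouse embryonic stem cells (ESCs). The members were chosen by name: mmu-miR-30a-5p, mmu-miR-30b-5p, mmu-miR-30c-5p, mmu-miR-30d-5p and mmu-miR-30e-5p (written without the species prefix from here on), 5 of the 1033 miRNAs measured by small RNA sequencing. All 5 passed the filter on low values, which kept 521 miRNAs. ESCs are pluripotent cells of the early embryo, and the cytokine LIF holds them undifferentiated in culture.

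The study followed the miRNA content of the ESC lines D3 and B8. D3 cells were sampled at day 0 (3 libraries), day 7 (2 libraries, replicates 2 and 3) and day 21 (3 libraries), and B8 cells at day 7 (3 libraries) and day 0 (3 libraries). Cells at day 0 were undifferentiated and grew without feeder cells in serum medium with LIF. Those of day 7 were embryoid bodies, aggregates formed in hanging drops, and those of day 21 were outgrowths of such bodies, both kept without LIF in medium with RA (retinoic acid), ITS (insulin, transferrin and selenium) and N2 supplement. Both lines received the same media, no sample carried a labelled genetic change, and the 3 labelled B8 samples of day 21 were not analysed here. No label states that replicates came from separate cultures. The p-values here therefore rest on a spread among samples that may be purely technical.

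A miRNA guides an Argonaute protein to messenger RNAs that pair with its seed, bases 2 to 8 from its 5′ end, and these messages are then repressed. The miR-30 members share 1 seed and so can pair with many of the same messages. The family is expressed in many tissues, is known for its part in kidney podocytes, and represses Snai1, a driver of the epithelial-mesenchymal transition, in cultured hepatocytes.

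The mature sequences show how alike the members are and where they differ. The set of RefSeq sequences used here (GRCm38.p6) held 3 of the 5 members. They are printed 5′ to 3′ with the seed in capitals, beside miR-384-5p, a miRNA of another name with the same seed.
miR-30a-5p: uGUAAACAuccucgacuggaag
miR-30c-5p: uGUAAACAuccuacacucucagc
miR-30e-5p: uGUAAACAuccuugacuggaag
miR-384-5p: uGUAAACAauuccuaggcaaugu
The seed GUAAACA occurs at this place in 4 of the 1679 mature miRNAs of that set, the 4 shown. miR-30b-5p and miR-30d-5p were not in the set and are not counted. Counted from the 5′ end, miR-30a-5p and miR-30e-5p differ by 1 base, C13U, and miR-30a-5p and miR-30c-5p are identical over their first 12 bases. The rule by which reads matching several miRNAs were counted is not given in the sources used here, so values of members this alike are uncertain one by one.

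The hairpins place both arms and the loci. Letters of the 5p and 3p strands are in capitals and the rest of each RefSeq precursor is in lower case.
Mir30a: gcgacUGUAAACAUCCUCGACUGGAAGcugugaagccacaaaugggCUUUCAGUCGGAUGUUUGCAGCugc
Mir30c-2: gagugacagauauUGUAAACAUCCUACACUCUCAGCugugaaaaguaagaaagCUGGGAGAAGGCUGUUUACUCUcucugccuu
Mir30c-1: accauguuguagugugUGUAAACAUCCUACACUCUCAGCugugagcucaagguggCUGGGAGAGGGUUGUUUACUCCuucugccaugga
Mir30e: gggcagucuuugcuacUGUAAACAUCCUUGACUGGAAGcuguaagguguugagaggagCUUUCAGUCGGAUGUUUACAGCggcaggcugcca
On GRCm38, Mir30a lies at chr1:23272269-23272339 and Mir30c-2 at chr1:23291701-23291784, both on the plus strand with 19361 bases between them. Mir30a overlaps no other annotated gene, and Mir30c-2 lies in an exon of the long non-coding RNA gene Gm27028. Mir30c-1 (chr4:120769534-120769622) and Mir30e (chr4:120772606-120772697) lie on the minus strand, 2983 bases apart, in introns of Nfyc, which encodes a subunit of the NF-Y transcription factor and runs on the same strand. The annotation also places a miRNA named Mir30f on the opposite strand at Mir30e. Mir30c-1 and Mir30c-2 both give miR-30c-5p with 1 sequence, so the 5p reads cannot be divided between them, while their 3p strands differ.

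Each deposited value is the reads of a miRNA over a library factor. Their totals ran from 46965.1 to 830401.5 per library, and many miRNAs moved together between groups on this scale: the median log2 change of the 521 miRNAs was 2.25 at day 7 over day 0 in D3, −0.21 at day 7 over day 0 in B8, and −0.90 for D3 over B8 at day 0. Each comparison is therefore given also on a relative scale, for which the values were divided by median-of-ratios factors. These factors used the 319 miRNAs that had a value above 0 in every library. On that scale the 3 medians were 0.26, −0.04 and −0.10. Tests on both scales used limma on log2(value + 0.48), with p-values adjusted by Benjamini-Hochberg over the 521 miRNAs and a threshold of 0.05. A fold change on this scale understates the change of low values. D3 libraries held 56377 to 129486 recovered miRNA reads (day 0), 1008438 to 1060306 (day 7) and 547213 to 743039 (day 21). B8 libraries held 141823 to 256613 (day 7) and 138397 to 275271 (day 0). In D3, 1 recovered read was worth a deposited value of 0.518 to 0.833 at day 0 and 0.716 to 0.783 at day 7. The deposited values of these groups thus keep most of their difference in recovered reads. Why the library factors leave it in was not tested. Behind the members stood 58 to 3380 reads per library for miR-30a-5p, 53 to 2032 for miR-30d-5p, 24 to 882 for miR-30b-5p, 20 to 992 for miR-30c-5p and 23 to 460 for miR-30e-5p.

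Markers of the cell state were checked first. The miR-290 cluster, the main miRNA cluster of ESCs, made up 22.1% of the signal in D3 at day 0, 0.668% at day 7 and 1.13% at day 21, and 8.6% in B8 at day 7 against 27.4% at day 0. Of its 13 tested members 12 fell on the relative scale at day 7 in D3, where 27.1% of all miRNAs did, and 10 in B8, where 25.7% did. The larger share at day 21 than at day 7 in D3 came without a rise of any tested member. On the relative scale 0 of the 13 rose and 2 fell there, where 16.5% of all miRNAs rose and 10.7% fell. On the deposited scale 0 rose and 10 fell, where 8.06% and 31.5% of all miRNAs did. Shares are of a total in which miR-10a and miR-10b took 63.4% to 67.2% in D3 at day 7. A list of 5 neural miRNAs took 1.36% to 1.41% of the signal in D3 at day 7 and 0.0774% to 0.0904% at day 0. At day 21 of D3 it took 0.6855% to 0.8076%. In B8 the same list took 1.16% to 1.24% at day 7, against 0.0799% to 0.106% at day 0, where miR-9-3p was at 0 in every library. Of these 5, 4 rose on the relative scale at day 7 in D3, where 36.1% of all miRNAs did. In B8 3 of the 5 rose, where 26.9% did. At day 21 over day 7 in D3, 3 of the 5 fell on the relative scale and 0 rose. Of all miRNAs 10.7% fell and 16.5% rose there. A list of 5 mesenchymal miRNAs took 0.182% to 0.232% in D3 at day 0, where miR-214-3p was at 0 in every library, 0.698% to 0.929% at day 7 and 3.98% to 5.06% at day 21. In B8 it took less at day 7, 0.341% to 0.911%, against 1.33% to 1.54% at day 0. Its members went both ways there: 1 of 5 rose and 2 fell on the relative scale, where 26.9% and 25.7% of all miRNAs did. All 5 rose at day 7 in D3, where 36.1% of all miRNAs did. The part of these lists in the miR-30 results was not tested. In such mixed cultures a larger fraction of cells with a miRNA and more of it per cell cannot be told apart.

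The family as a whole was higher at the later days on the relative scale. There the 5 strands summed to 335 ± 23.1 in D3 at day 0 (SD, n = 3), 903 ± 27.7 at day 7 (n = 2) and 1462 ± 264 at day 21 (n = 3), and to 691 ± 84.6 in B8 at day 7 against 400.0 ± 41.7 at day 0 (n = 3 each). The libraries of day 7 lay above those of day 0 in both lines, those of D3 at day 21 above those of D3 at day 7, and the lines overlapped at day 0. As a share of all miRNA signal the picture was different: the family took 0.291% ± 0.0215 in D3 at day 0, 0.295% ± 0.0192 at day 7 and 0.985% ± 0.0949 at day 21, and 0.366% ± 0.066 in B8 at day 7 against 0.305% ± 0.0125 at day 0. The share of D3 overlapped between days 7 and 0. In exact permutation tests of this share no comparison of groups passed the threshold. The lowest exact permutation p was 0.1 (adjusted 0.3), for B8 at day 7 over day 0 and for D3 at day 21 over day 0. With only 10 or 20 arrangements of labels per comparison no p low enough to pass could arise, so these tests could not decide whether the share changed. miR-10a and miR-10b, miRNAs of the Hox gene clusters, alone took 63.4% to 67.2% of the signal in D3 at day 7 against 0.0807% to 0.160% at day 0, and B8 gave them 42.0% to 47.0% at day 7 against 0.579% to 0.660% at day 0. With their signal left out, the family's share was 0.292% ± 0.0216 in D3 at day 0, 0.851% ± 0.00988 at day 7 and 1.14% ± 0.124 at day 21, and 0.651% ± 0.107 in B8 at day 7 against 0.307% ± 0.0127 at day 0.

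**Figure D1:**
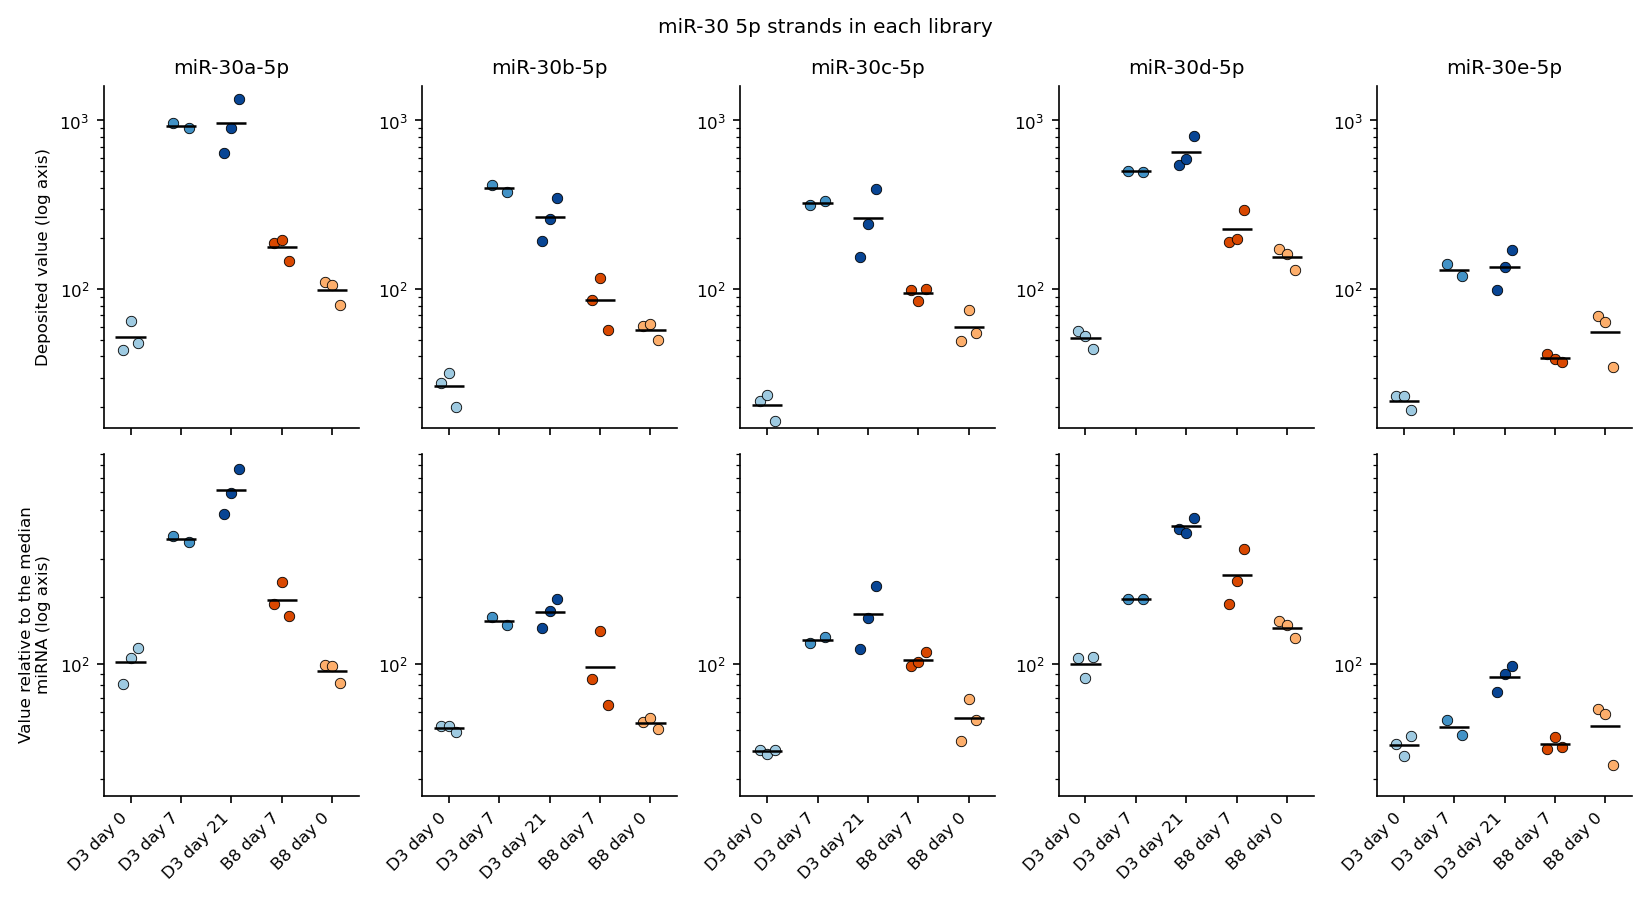
Values of the 5 miR-30 5p strands in each of the 14 libraries (points) with the group mean (bar), on log axes; the upper row shows deposited values and the lower row values on the relative scale. miR-30a-5p is lowest at day 0 in both lines, and miR-30e-5p of B8 at day 7 lies within the spread of B8 at day 0 in both rows.

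miR-30a-5p, reported to repress the autophagy protein Beclin 1 in human tumour cells, had the largest log2 change of the 5 at day 7 and at day 21 over day 0, in each line and on both scales. Its deposited value was 43.5, 65.2 and 48.3 in D3 at day 0, 968.0 and 898 at day 7, and 638, 904 and 1344 at day 21. In B8 it was 189, 196 and 147 at day 7, against 110.2, 106 and 81.2 at day 0. Every library of day 7 or 21 lay above every library of day 0 in its line, while days 21 and 7 of D3 overlapped. Its relative level averaged 102 ± 19.1 in D3 at day 0, 369 ± 18.3 at day 7 and 615 ± 144 at day 21, and 195 ± 35.8 in B8 at day 7 against 92.5 ± 9.61 at day 0.

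miR-30d-5p was the most abundant member in B8. Its deposited value was 56.9, 52.8 and 44.2 in D3 at day 0, 500.4 and 497 at day 7, and 542, 593 and 808 at day 21. In B8 it was 189.7, 198 and 295 at day 7, against 174, 163 and 131 at day 0. The days did not overlap within a line. Its relative means were 99.9 ± 11.8 in D3 at day 0, 197 ± 0.395 at day 7 and 420.2 ± 35.4 at day 21, and 252 ± 73.2 in B8 at day 7 against 145 ± 13.0 at day 0. In D3 the relative level of this strand was thus at its highest at day 21, and the 3 libraries of that day stood above both libraries of day 7.

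miR-30b-5p and miR-30c-5p had middling levels. The deposited value of miR-30b-5p was 28.0, 31.8 and 20.0 in D3 at day 0, 412 and 379 at day 7, and 194, 260.2 and 347 at day 21. In B8 it was 86.2, 117 and 57.6 at day 7, against 60.7, 62.1 and 50.1 at day 0, and these days overlapped through replicate 3 of day 7. miR-30c-5p, which lowers lipoprotein secretion by the mouse liver through the message for Mttp, had a deposited value of 21.7, 23.7 and 16.7 in D3 at day 0, 316 and 334 at day 7, and 155, 242 and 395 at day 21. In B8 it was 98.8, 85.0 and 100.2 at day 7, against 49.5, 75.5 and 55.3 at day 0, without overlap. Relative means of miR-30b-5p were 50.9 ± 1.82, 157 ± 8.61 and 172 ± 25.9 at days 0, 7 and 21 of D3, and 96.6 ± 39.0 in B8 at day 7 against 53.9 ± 3.34 at day 0. Those of miR-30c-5p were 39.9 ± 1.02, 128 ± 5.43 and 167 ± 54.3 at days 0, 7 and 21 of D3, and 104 ± 7.74 in B8 at day 7 against 56.4 ± 12.4 at day 0.

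miR-30e-5p, the strand with 1 base different from miR-30a-5p, behaved apart from the others. Its deposited value was 23.3, 23.2 and 19.2 in D3 at day 0, 141 and 119.5 at day 7, and 98.6, 136 and 172 at day 21. In B8 it was 41.6, 38.6 and 37.1 at day 7, against 69.6, 64.4 and 34.6 at day 0. The B8 days overlapped, with 2 of the 3 libraries of day 0 above all 3 of day 7. Relative levels averaged 42.6 ± 4.46 in D3 at day 0, 51.5 ± 5.83 at day 7 and 87.3 ± 12.1 at day 21, and 42.9 ± 2.9 in B8 at day 7 against 52.0 ± 15.2 at day 0.

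The order of the levels depended on line and day. The order given here is that of the deposited values. How well a miRNA is captured in a library also depends on its sequence, which was not tested. In D3, miR-30a-5p and miR-30d-5p led at day 0 with overlapping libraries, and miR-30b-5p, miR-30e-5p and miR-30c-5p followed, each overlapping with its neighbour in that order. At day 7 in D3 all 5 were separate, in the order a, d, b, c, e. At day 21 in D3 the order of the means was the same. There miR-30a-5p was above miR-30d-5p within each of the 3 libraries although their ranges overlapped, and the ranges of miR-30c-5p overlapped with those of miR-30b-5p and miR-30e-5p. In B8 at day 7, miR-30d-5p was above miR-30a-5p within each of the 3 libraries with overlapping ranges, and miR-30e-5p was separate and last. In B8 at day 0, miR-30d-5p and then miR-30a-5p stood apart, and miR-30c-5p, miR-30b-5p and miR-30e-5p did not differ beyond their spread. By mean share of the signal miR-30a-5p ranked 97, 62 and 43 of the 1033 miRNAs at days 0, 7 and 21 of D3, and 79 in B8 at day 7 against 114 at day 0. miR-30e-5p ranked 146, 152 and 122 at days 0, 7 and 21 of D3, and 159 in B8 at day 7 against 143 at day 0.

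Day 7 against day 0 in B8 asks what the embryoid body stage changed in that line. In limma's test on the relative scale 4 of the 5 members rose, where 26.9% of all miRNAs rose. miR-30a-5p rose by 1.06 ± 0.20 (log2 ± SE, 2.09-fold, limma adjusted p = 0.000261), miR-30c-5p 1.86-fold (limma adjusted p = 0.00263), miR-30b-5p 1.70-fold (limma adjusted p = 0.00976) and miR-30d-5p 1.69-fold (limma adjusted p = 0.00302). miR-30e-5p had a log2 difference of −0.23 ± 0.23 (limma adjusted p = 0.413). On the deposited scale 1 of 5 rose, where 21.9% of all miRNAs did: miR-30a-5p by 0.84 ± 0.26 (1.79-fold, limma adjusted p = 0.00941), a call that was lost (adjusted p = 0.0542) when replicate 3 of day 0 was left out, which also called miR-30e-5p lower (limma adjusted p = 0.0353). The median of the 5 was 0.77 on the relative scale, where that of all miRNAs was −0.04, and 0.54 on the deposited scale.

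At day 7 over day 0 in D3, 5 of 5 members rose on the deposited scale, where 70.4% of all miRNAs rose. miR-30a-5p was 17.9-fold higher (log2 4.16 ± 0.29, limma adjusted p = 2.97e-12), miR-30d-5p 9.69-fold (limma adjusted p = 6.06e-11) and miR-30e-5p 5.85-fold (limma adjusted p = 1.09e-07). On the relative scale 4 of 5 rose, where 36.1% of all miRNAs did. miR-30a-5p rose 3.66-fold (1.87 ± 0.23, limma adjusted p = 1.31e-06), miR-30c-5p 3.19-fold, miR-30b-5p 3.06-fold and miR-30d-5p 1.98-fold (limma adjusted p of 1.59e-05, 3.31e-05 and 0.00067 in that order). miR-30e-5p, at 1.21-fold, had a log2 difference of 0.27 ± 0.25 (limma adjusted p = 0.378). The 4 relative calls of each line held when any 1 library of the comparison was left out. Scaled instead to equal column totals, of which miR-10a and miR-10b hold most in D3 at day 7, none of the 5 rose in D3, miR-30d-5p had a log2 difference of −0.42 and miR-30e-5p fell by 1.13. With that scaling 110 of all 521 miRNAs rose in D3 and 233 fell.

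By day 21 in D3 all 5 members were above day 0 on both scales, where 65.3% of all miRNAs rose on the deposited scale and 38.2% on the relative scale. The relative rise was 5.99-fold for miR-30a-5p (2.58 ± 0.20, limma adjusted p = 3.69e-09), 4.20-fold for miR-30d-5p (limma adjusted p = 3.9e-08), 4.01-fold for miR-30c-5p (limma adjusted p = 4.49e-07), 3.33-fold for miR-30b-5p (limma adjusted p = 3.71e-06) and 2.03-fold for miR-30e-5p (limma adjusted p = 0.00075). Leaving out any 1 library changed none of these calls. The median of the 5 was 2.0 on the relative scale, where that of all miRNAs was 0.40.

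From day 7 to day 21 in D3 the scales gave different answers. On the deposited scale none of the 5 passed the threshold in either direction and none had an unadjusted p under 0.05, where 8.06% of all miRNAs rose and 31.5% fell. On recovered reads edgeR and DESeq2 each called 3 of the 5 higher, and 140 and 116 of all 521 miRNAs. On the relative scale 3 of 5 rose, where 16.5% of all miRNAs did: miR-30d-5p 2.12-fold (1.09 ± 0.21, limma adjusted p = 0.00115), miR-30e-5p 1.68-fold (limma adjusted p = 0.034) and miR-30a-5p 1.64-fold (limma adjusted p = 0.0254). The miR-30d-5p call held without any 1 library, with limma adjusted p of 0.00339 to 0.0178. Those of miR-30a-5p and miR-30e-5p were both lost without either library of day 7 and without replicate 2 or replicate 3 of day 21.

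**Figure D2:**
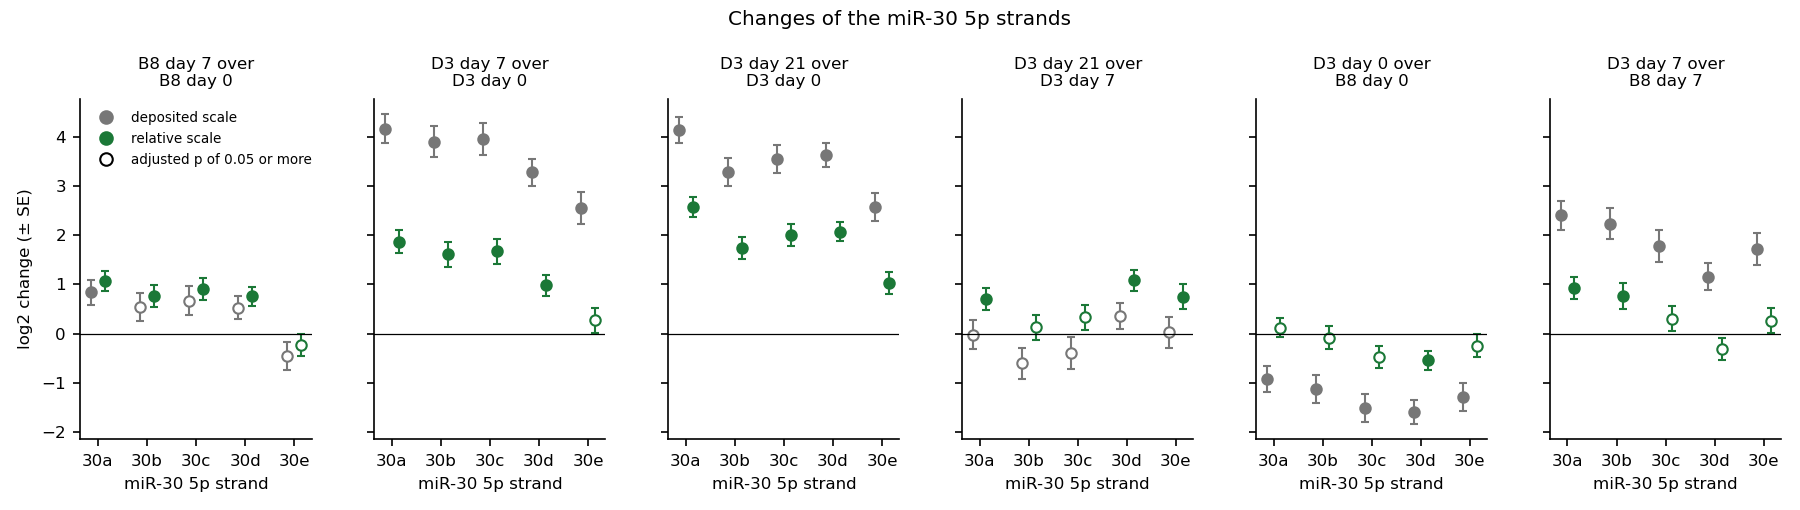
Log2 change of each miR-30 5p strand with its standard error in 6 comparisons, on the deposited scale (grey) and the relative scale (green); open symbols missed the adjusted p threshold of 0.05. miR-30e-5p has the smallest relative change of the 5 in both comparisons of day 7 over day 0 and at day 21 over day 0, and the gap between grey and green shows how far most miRNAs shifted together on the deposited scale.

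The lines were compared at each shared day. At day 0 all 5 members were lower in D3 than in B8 on the deposited scale, by 0.92 to 1.59 on the log2 scale, where 46.1% of all miRNAs were lower. Relative to the median miRNA 1 of 5 was lower, where 15.9% of all miRNAs were: miR-30d-5p with −0.54 ± 0.19 (limma adjusted p = 0.0495), a call lost whichever library was left out. The sign of miR-30a-5p turned between the scales, with −0.92 on the deposited and 0.12 on the relative scale. At day 7 all 5 were higher in D3 than in B8 on the deposited scale, where 66% of all miRNAs were higher. Relative values put 2 higher, where 25.1% were: miR-30a-5p 1.91-fold (0.93 ± 0.23, limma adjusted p = 0.00326) and miR-30b-5p 1.70-fold (limma adjusted p = 0.0251). The miR-30b-5p call was lost in 4 of the 5 fits that left out a library, and kept only without B8 replicate 2. miR-30d-5p, higher on the deposited scale, had a relative difference of −0.31 (limma adjusted p = 0.264).

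A direct test asked whether the change from day 0 to day 7 differed between D3 and B8. On the deposited scale it was larger in D3 for all 5 members, by 2.75 to 3.36 on the log2 scale, where 71.8% of all miRNAs passed in that direction and the median of all was 2.64. With relative values 1 of 5 passed, where 20.7% of all miRNAs did: miR-30a-5p with 0.81 ± 0.30 (limma adjusted p = 0.0495), which passed in 3 of 11 fits that left out a library. These tests share the day 0 and day 7 libraries with the comparisons within each line.

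The make-up of the family can be read without any scaling between libraries, as the percent of the 5 summed strands that each strand gives. miR-30e-5p gave 13.4%, 11.8% and 12.9% in D3 at day 0, 6.03% and 5.37% at day 7, and 6.06%, 6.36% and 5.61% at day 21. In B8 it gave 6.87%, 6.09% and 5.82% at day 7, against 15.0%, 13.7% and 9.83% at day 0. No library of a later day reached the lowest library of day 0, and the later groups of both lines lay together between 5.37% and 6.87%. The share at day 7 fell by 7.01 percentage points in D3 and by 6.58 in B8 relative to day 0. In an exact permutation test of the change over both lines, with labels exchanged within each line (200 arrangements, 2-sided), p was 0.005, the smallest that these arrangements can give, and 0.0183 after adjustment over 11 such tests. The set of 11 tests was added after the values had been seen. Depth differed with the day in D3 and was 141823 to 256613 reads in B8 at day 7 against 138397 to 275271 at day 0. Its part in the result was not tested.

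miR-30a-5p gave a larger part of the family at day 7. It gave 25.1%, 33.2% and 32.6% in D3 at day 0, 41.4% and 40.3% at day 7, and 39.2%, 42.3% and 43.9% at day 21. In B8 it gave 31.2%, 30.9% and 23.1% at day 7, against 23.8%, 22.5% and 23.1% at day 0, with replicate 3 of day 7 inside the range of day 0. The same exact permutation test over both lines gave 10.6 percentage points in D3 and 5.26 in B8 with p = 0.015 (adjusted 0.033). The other 3 strands did not pass this test: miR-30d-5p averaged 21.9% ± 0.627 in D3 at day 7 against 29.8% ± 2.99 at day 0, and 36.3% ± 8.69 in B8 at day 7 against 36.4% ± 1.57 at day 0 (exact permutation p = 0.205), with p = 0.39 for miR-30b-5p and 0.145 for miR-30c-5p. Leaving out any 1 library kept the direction of the miR-30e-5p and miR-30a-5p shifts in both lines.

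**Figure D3:**
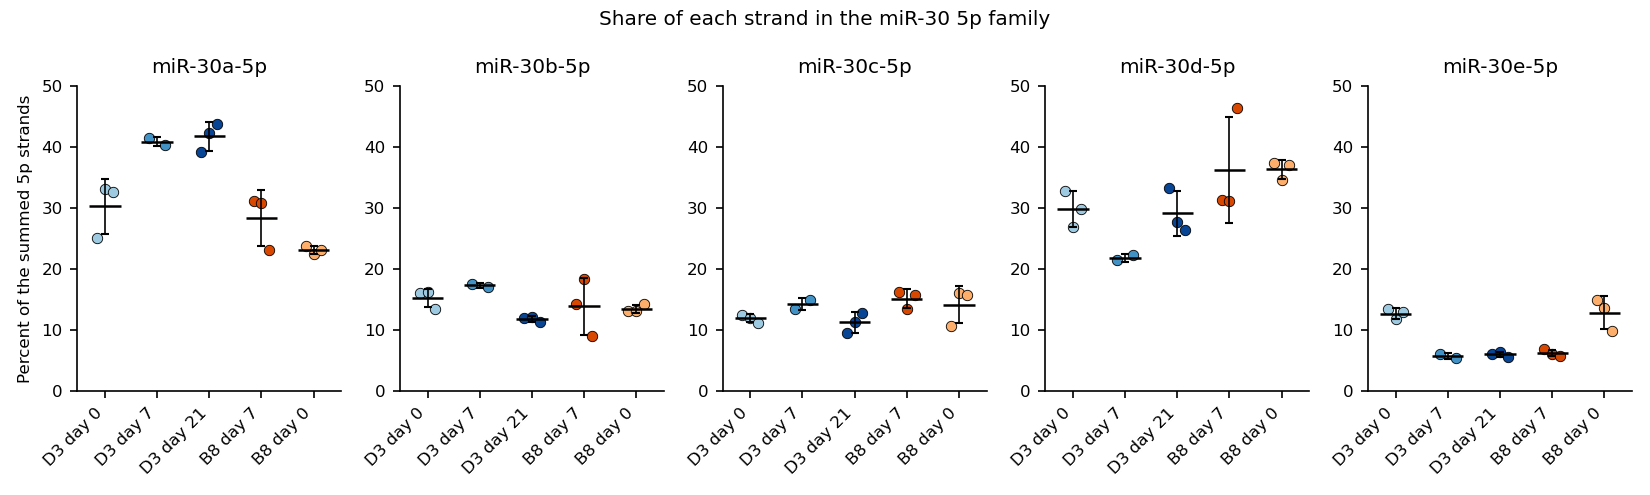
Percent of the summed miR-30 5p strands given by each strand in each library (points), with the group mean and SD. miR-30e-5p falls into 2 levels, 9.83% to 15.0% at day 0 and 5.37% to 6.87% at days 7 and 21, in D3 and B8 alike.

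The 3p strands of the same hairpins gave a further view, since each 3p strand belongs to 1 precursor. The RefSeq set used here held 4 of the 6, shown with bases 2 to 8 in capitals because the 3p strands form groups with seeds of their own.
miR-30a-3p: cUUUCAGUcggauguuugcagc
miR-30e-3p: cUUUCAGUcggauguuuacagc
miR-30c-1-3p: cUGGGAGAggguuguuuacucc
miR-30c-2-3p: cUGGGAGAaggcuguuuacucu
miR-30a-3p and miR-30e-3p differ by 1 base, G18A, and miR-30c-1-3p and miR-30c-2-3p by 3, G9A, U12C and C22U. Values of miR-30a-3p and miR-30e-3p are thus uncertain one by one, like those of their 5p strands. All 6 strands, with miR-30b-3p and miR-30d-3p, passed the filter. Of the 6, 4 rose on the relative scale at day 7 over day 0 in B8 (26.9% of all miRNAs rose), 4 in D3 (36.1%), and 3 at day 21 over day 0 in D3 (38.2%). At day 7 miR-30a-3p, miR-30c-2-3p and miR-30e-3p rose in both lines. The other strand was miR-30b-3p in B8, with 0 to 10 reads per library, and miR-30d-3p in D3. On the deposited scale the counts were 3 in B8 (21.9% of all), 6 in D3 at day 7 (70.4%) and 5 at day 21 (65.3%).

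The shares of the miR-30c 3p strands within their pair differed between day 0 and the later days. Reads of miR-30c-2-3p, from chromosome 1, numbered 7, 8 and 3 in D3 at day 0, 202 and 189 at day 7, and 115, 153 and 136 at day 21. Those of miR-30c-1-3p, from the Nfyc intron, numbered 9, 20 and 11 in D3 at day 0, 70 and 55 at day 7, and 39, 56 and 49 at day 21. In B8 miR-30c-2-3p had 41, 51 and 21 reads at day 7 against 19, 15 and 6 at day 0, and miR-30c-1-3p had 15, 8 and 5 at day 7 against 34, 17 and 11 at day 0. miR-30c-1-3p thus had more reads of the pair in every day 0 library and fewer in every later one. Some day 0 pairs were close, as 9 against 7 reads in D3 and 17 against 15 in B8. The order within such a library is uncertain. The share of miR-30c-2-3p in the pair averaged 31.2% ± 11.4 in D3 at day 0, 75.9% ± 2.26 at day 7 and 73.8% ± 0.775 at day 21, and 80.1% ± 6.64 in B8 at day 7 against 39.3% ± 6.53 at day 0. The exact permutation test over both lines gave 44.6 percentage points in D3 and 40.8 in B8, with p = 0.005 (adjusted 0.0183).

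Tested singly on the relative scale, miR-30c-2-3p rose at day 7 over day 0 by 3.04 ± 0.28 in D3 (limma adjusted p = 4.77e-08) and by 2.08 ± 0.25 in B8 (limma adjusted p = 1.91e-06), while miR-30c-1-3p had differences of 0.28 ± 0.42 in D3 (limma adjusted p = 0.605) and −0.51 ± 0.38 in B8 (limma adjusted p = 0.271). miR-30a-3p, whose hairpin neighbours that of miR-30c-2, rose by 2.54 ± 0.26 in D3 (limma adjusted p = 1.6e-07) and by 2.03 ± 0.23 in B8 (limma adjusted p = 1.08e-06). miR-30e-3p, whose hairpin shares the Nfyc introns with miR-30c-1, rose by 1.66 ± 0.20 in D3 (limma adjusted p = 1.24e-06) and by 0.45 ± 0.18 in B8 (limma adjusted p = 0.0413). Its rise was larger in D3 than in B8, by 1.2 ± 0.27 (limma adjusted p = 0.00186). miR-30e-3p was the only 3p strand of the 6 to pass the direct test between the lines on the relative scale. In that test 20.7% of all miRNAs passed in the same direction. At day 21 against day 7 in D3, miR-30c-2-3p fell by 0.95 ± 0.28 (limma adjusted p = 0.0177), and the other 5 strands did not pass, where 10.7% of all miRNAs fell. On the deposited scale 5 of the 6 fell, all but miR-30b-3p, where 31.5% of all miRNAs did. There miR-30c-2-3p fell by 1.68 ± 0.36 (limma adjusted p = 0.000722).

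The balance of the arms of 1 hairpin also moved with the day. Of the reads from both arms of Mir30e, the 3p strand had 54.9% ± 4.59 in D3 at day 0, 76.2% ± 0.198 at day 7 and 63.9% ± 1.88 at day 21, and 68.0% ± 1.48 in B8 at day 7 against 56.8% ± 5.68 at day 0. Days 7 and 0 did not overlap in either line, and the exact permutation test over both lines gave p = 0.005 (adjusted 0.0183). Of the reads from Mir30a, the 3p strand had 22.7% ± 5.47 in D3 at day 0, 31.6% ± 1.48 at day 7 and 17.2% ± 1.77 at day 21, and 28.0% ± 4.58 in B8 at day 7 against 16.5% ± 3.57 at day 0, with p = 0.01 (adjusted 0.0275) in the same exact permutation test. The miR-30e hairpin gave more 3p than 5p reads on average in every group, and the miR-30a hairpin fewer. The strands of these hairpins differ by 1 base on each arm, so the percents depend on how such reads were counted. The arm shares of miR-30b, miR-30c and miR-30d did not pass (exact permutation p of 0.845, 0.625 and 0.525). miR-30b-3p had 0 to 10 reads per library, too few to show a modest change.

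**Figure D4:**
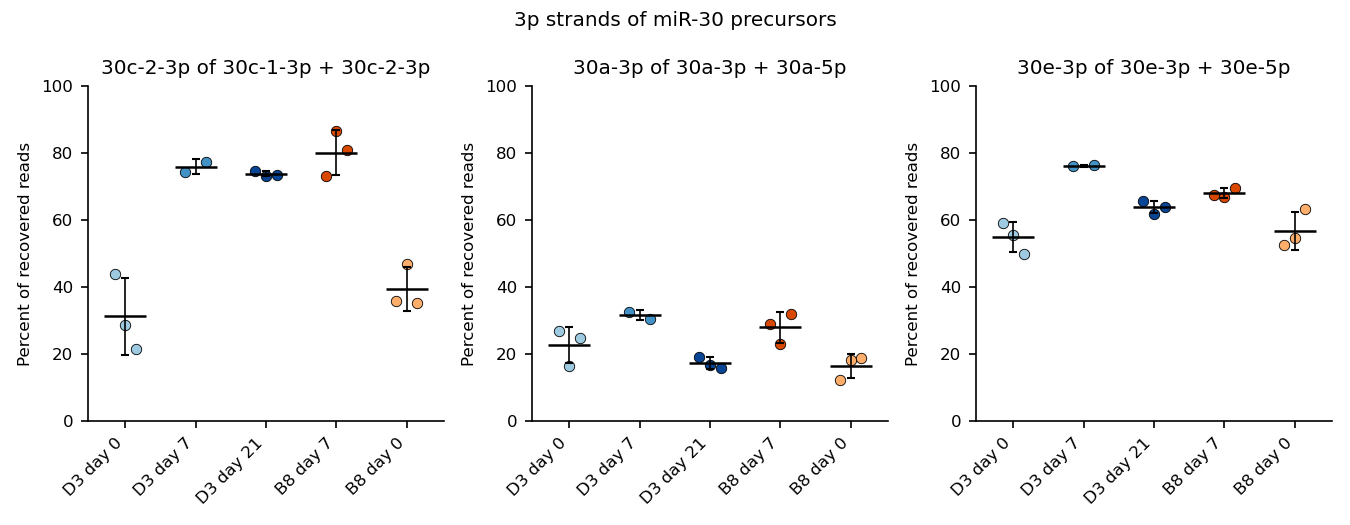
Percent of reads in each library (points) with the group mean and SD, for miR-30c-2-3p within the pair of miR-30c 3p strands (left), miR-30a-3p within both arms of its hairpin (middle) and miR-30e-3p within both arms of its hairpin (right). The left panel lies at 39.3% and below on average at day 0 and at 73.8% and above at the later days.

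miR-384-5p, with the same seed, was scarce at day 0 and present later. It had 2, 2 and 0 reads in D3 at day 0, 77 and 57 at day 7, and 33, 52 and 43 at day 21. In B8 it had 11, 6 and 5 reads at day 7, against 1, 0 and 0 at day 0. These reads are not corrected for depth, which in D3 was far larger at day 7 than at day 0. As a mean share of the signal miR-384-5p took 0.00106%, 0.00646% and 0.00636% at days 0, 7 and 21 of D3. In B8 it took 0.00351% at day 7 against 0.000121% at day 0. The days did not overlap in either line, and it rose at day 7 over day 0 on the relative scale in D3 (limma adjusted p = 4.15e-05) and in B8 (limma adjusted p = 4.67e-05). A fitted fold of so few reads at day 0 depends on the pseudocount and is not given.

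Across the 14 libraries the members varied together to unequal degrees. Pearson's r of the relative log2 levels was 0.96 between miR-30a-5p and miR-30b-5p, 0.911 between miR-30a-5p and miR-30c-5p and 0.844 between miR-30a-5p and miR-30d-5p. The 4 values with miR-30e-5p ran from 0.608 to 0.731 and were the lowest of the 10 pairs, the next being 0.783 for miR-30b-5p with miR-30d-5p. These are descriptions over libraries that share groups and depth. The miRNAs outside the family whose relative level followed the family's summed level most closely, among 251 candidates, were miR-107-3p (r = 0.973), miR-26a-5p (0.958), miR-210-3p, known for its rise in hypoxia (0.951), miR-351-5p (0.951) and let-7g-5p (0.948). miR-107-3p averaged 57.1 ± 15.9 in D3 at day 0, 249 ± 0.903 at day 7 and 325 ± 29.7 at day 21, and 179 ± 36.6 in B8 at day 7 against 76.3 ± 12.1 at day 0 on that scale.

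The let-7 family, whose members rise as ESCs leave pluripotency, gives a measure of size. All 9 of its members rose on the relative scale at day 7 over day 0 in D3, where 36.1% of all miRNAs did, with a median log2 change of 3.89, where the median of the 5 miR-30 strands was 1.61. In B8 5 of the 9 rose and 2 fell at day 7 over day 0, where 26.9% of all miRNAs rose and 25.7% fell, with a median of 1.04, where that of the miR-30 strands was 0.77. At day 0 all 9 let-7 members were lower in D3 than in B8, where 15.9% of all miRNAs were, with a median of −2.35, where that of the miR-30 strands was −0.24. The difference between the families was not tested.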

How the data were processed

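The analysis used the deposited table of 1033 mature miRNAs from small RNA sequencing of D3 and B8 cells, with 14 of 17 labelled samples. Its signal values are the authors' reads per miRNA divided by a factor per library, with TMM in the table's name. The submitters' processing notes name CASAVA, FastQC, Bowtie, Partek and mm10. Cutadapt and a step on read length appear in the titles of the columns. Versions, settings and the handling of reads that match several miRNAs are not given in the sources used here. Whole reads were recovered: in every library, 100% of values below 1000 reads came out whole, within 0.01, when divided by the worth of 1 read. The 5 members together had 178 to 365 reads per library in D3 at day 0, 2984 to 3112 at day 7 and 4903 to 7708 at day 21. B8 libraries had 464 to 1134 such reads at day 7, against 407 to 833 at day 0. PCR copies make reads less independent than counts assume.

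The filter required 5 per 1000000 of a library's total on average and left 521 miRNAs. A model of 5 group means was fitted with limma 3.58.1 (R 4.3.3) to log2(value + 0.48), a pseudocount of 2 per 1000000 of the mean total. Its prior was trended, and 9 degrees of freedom remained. Tests were 2-sided, with Benjamini-Hochberg adjustment over the 521 miRNAs in each of 7 comparisons. The script was tested on simulated data with 200 changed miRNAs. On recovered reads, edgeR 4.0.16 called 167 higher and 160 lower miRNAs at day 7 over day 0 in D3, and 143 and 122 in B8. DESeq2 1.42.0 called 177 and 140 in D3, and 139 and 116 in B8. The main fit called 367 and 36 in D3, and 114 and 146 in B8. The family's share of the signal was compared by exact permutation in SciPy 1.17.1. The other shares were compared by listing every arrangement of labels within each line.

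Members and lists were chosen with earlier results of these data known. Named miRNAs were the members, their 3p strands, measured miRNAs with their seed, and the 5 miRNAs above the median level, outside the family, with the highest r with the summed family. Cell type lists were neural, muscle, mesenchymal, epithelial, endodermal, endothelial and blood miRNAs, the miR-290 and miR-302 clusters, and entries resembling fragments of other RNAs. Sequences are from RefSeq (GRCm38.p6).

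Other settings tried were scalings, pseudocounts, filters, an untrended prior, fits of only the compared groups, edgeR, DESeq2, a replicate block and each library left out. Labels of D3 day 7 start at replicate 2. Same-numbered libraries did not deviate together: r of their deviations was −0.132 to 0.131 over 26 pairs, above 0.1 in 2 of them, so the numbers were not taken to pair samples.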

Additional observations from a re-analysis of the deposited data

Results flagged for a closer look

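The change from day 0 to day 7 differed between the lines in the direct test, D3 minus B8. On the deposited scale the log2 difference was 3.33 for miR-30a-5p, 3.36 for miR-30b-5p, 3.28 for miR-30c-5p, 2.75 for miR-30d-5p and 3.01 for miR-30e-5p, where the median of all 521 miRNAs was 2.64. On the relative scale it passed for miR-30a-5p alone, with 0.808 (limma adjusted p = 0.0495), where the median of all miRNAs was 0.47. For that value limma adjusted p was 0.0174 to 0.152 when 1 library was left out and 0.0694 with a replicate block. On equal column totals the 5 differences ran from −0.64 to −0.0225.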

How the results depend on the processing

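Counts of members past the threshold depended mainly on the scaling between libraries. For day 7 over day 0 in B8, 1 member rose on deposited values, 4 with median-of-ratios factors, with equal totals without the miR-10 strands (miR-10a and miR-10b left out of each total), by edgeR and by DESeq2, and 2 with a pseudocount of 10 per 1000000, a filter at 50 per 1000000 or the compared groups alone. These last 3 settings called 120 of 521, 76 of 293 and 105 of 521 miRNAs higher, in that order. Leaving out 1 library gave 0 to 2 higher and 0 to 1 lower. Over all 521 miRNAs those fits gave 103 to 117 higher and 127 to 153 lower. Equal totals gave 1 lower, miR-30e-5p, where 186 of all 521 miRNAs were lower. For day 7 over day 0 in D3, 5 rose, but 0 rose and 1 fell with equal totals, which called 233 of all 521 miRNAs lower. For day 21 over day 7 in D3, 0 rose, but 3 with median-of-ratios factors, edgeR or DESeq2, 5 with equal totals and 1 with equal totals without the miR-10 strands. For D3 over B8 at day 0, 5 were lower, but 1 with median-of-ratios factors, edgeR or DESeq2, and 0 with equal totals of either kind. For D3 over B8 at day 7, 5 were higher, but 2 with median-of-ratios factors, DESeq2 or equal totals without the miR-10 strands, 1 with edgeR and 0 with equal totals, and 1 was lower, miR-30d-5p, with equal totals or edgeR. In that comparison 122 of all 521 miRNAs were lower with equal totals and 113 with edgeR. For the direct test between the lines, 5 passed, but 1 with median-of-ratios factors or DESeq2 and 0 with edgeR and both kinds of equal totals. Over all 521 miRNAs the counts moved too (DESeq2 gave no adjusted p for some miRNAs in 3 comparisons). In the order deposited values, median-of-ratios factors, equal totals, equal totals without the miR-10 strands, edgeR and DESeq2, the miRNAs called higher were 114, 140, 95, 159, 143 and 139 at day 7 over day 0 in B8, and 367, 188, 110, 193, 167 and 177 in D3. At day 21 over day 7 in D3 they were 42, 86, 198, 55, 140 and 116. Those called lower in D3 than in B8 at day 0 were 240, 83, 65, 66, 80 and 76. Those called higher in D3 than in B8 at day 7 were 344, 131, 41, 123, 103 and 130, and in the direct test between the lines 374, 108, 52, 91, 82 and 96. Deposited values keep most of the difference in recovered reads between days 0 and 7 of D3. The cause of the moved counts was not tested beyond these scalings. No change from day 0 to day 21 in D3 was lost under any setting tried.

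Signs that turned were as follows, as log2 differences. With equal totals, day 7 over day 0 in D3 gave −0.42 for miR-30d-5p and −1.13 for miR-30e-5p, and D3 over B8 at day 7 gave −0.38 for miR-30c-5p, −1.0 for miR-30d-5p and −0.43 for miR-30e-5p. The direct test then gave −0.0643, −0.0225, −0.091, −0.64 and −0.36 for miR-30a-5p to miR-30e-5p. For day 21 over day 7 in D3, miR-30a-5p, miR-30b-5p and miR-30c-5p had 0.71, 0.13 and 0.33 with median-of-ratios factors, 1.77, 1.18 and 1.38 with equal totals, 0.94, 0.34 and 0.59 with edgeR, and 0.74, 0.14 and 0.38 with DESeq2. With equal totals without the miR-10 strands, miR-30a-5p had 0.44 and miR-30c-5p 0.0624. Leaving out 1 library gave −0.30 to 0.24 for miR-30a-5p and −0.17 to 0.23 for miR-30e-5p. For D3 over B8 at day 0, miR-30a-5p had 0.12 with median-of-ratios factors, 0.31 with equal totals, 0.30 with equal totals without the miR-10 strands, 0.0316 with edgeR and 0.11 with DESeq2, and miR-30b-5p had 0.10 and 0.0941 with the 2 kinds of equal totals. For D3 over B8 at day 7, miR-30d-5p had −0.31 with median-of-ratios factors or with equal totals without the miR-10 strands, −0.60 with edgeR and −0.34 with DESeq2, and miR-30e-5p −0.0016 with edgeR. miR-30e-5p at day 7 over day 0 in B8 had 0.0542 with equal totals without the miR-10 strands. The family's share of the signal at day 7 minus day 0 in D3 was −0.0038 to 0.0161 percentage points when 1 library was left out, and that of D3 minus B8 at day 7 was 0.1997 without miR-10a and miR-10b.

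A replicate block, fitted although the numbers were not taken to pair samples, called 114 miRNAs higher and 145 lower at day 7 over day 0 in B8, and 368 and 39 in D3. It turned the sign of miR-30a-5p at day 21 over day 7 in D3 on the deposited scale (0.0409) and, on the relative scale, removed the miR-30a-5p call in the direct test between the lines. It changed no other count of members. In D3 at day 0, with 56377 to 129486 reads per library, members rest on as few as 20 reads, which limits small changes there. Where a left-out library leaves D3 at day 7 with 1 sample, that sample is assumed to vary like the other groups, and the share of the signal was then not recomputed.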

Other observations

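Other marker lists moved between the groups whose miR-30 levels are compared, and their part in the miR-30 results was not tested. Their shares are of a total in which miR-10a and miR-10b took 63.4% to 67.2% in D3 at day 7. A list's share can fall there without a fall of its members on the relative scale. The miR-302 cluster, active in primed pluripotent cells, took 0.179% of the signal in D3 at day 0, 0.022% at day 7 and 0.251% at day 21, and 0.0162% in B8 at day 7 against 0.178% at day 0. Of its 7 tested members 3 rose and 1 fell on the relative scale at day 21 over day 0 in D3. Of all 521 miRNAs 199 rose and 133 fell there. The median log2 change of the 7 was −0.0543. The 6 muscle miRNAs took at most 0.00429% in every group but D3 at day 21, where they took 0.125% to 0.344%. The 6 epithelial miRNAs took 0.400% in D3 at day 0, 0.0926% at day 7 and 0.488% at day 21, and 0.394% in B8 at day 7 against 0.746% at day 0. The 4 endodermal miRNAs took 0.102%, 0.0414% and 0.289% at days 0, 7 and 21 of D3, and 0.0699% in B8 at day 7 against 0.0725% at day 0. On the relative scale 1 of these 4 rose and 0 fell at day 7 over day 0 in D3. Of all miRNAs 36.1% rose and 27.1% fell there. The 2 endothelial strands took 0.0981%, 0.21% and 0.289% at days 0, 7 and 21 of D3, and 0.0352% in B8 at day 7 against 0.0786% at day 0. The 5 blood miRNAs took 0.0178%, 0.000335% and 0.0126% at days 0, 7 and 21 of D3, and 0.0133% in B8 at day 7 against 0.275% at day 0. The 4 entries resembling fragments of other RNAs, a sign of RNA quality, took 0.557%, 0.0391% and 0.0715% at days 0, 7 and 21 of D3, and 0.088% in B8 at day 7 against 0.275% at day 0.

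The miRNAs whose relative level ran most opposite to the summed family over the 14 libraries were miR-7a-5p (r = −0.968) and miR-92a-1-5p (r = −0.964), named after their values were seen. miR-7a-5p averaged 447 ± 51.6 in D3 at day 0, 42.1 ± 7.77 at day 7 and 27.8 ± 2.54 at day 21, and 88.2 ± 32.1 in B8 at day 7 against 404 ± 68.8 at day 0 on the relative scale. miR-92a-1-5p averaged 1032 ± 101 in D3 at day 0, 294 ± 16.4 at day 7 and 111 ± 7.34 at day 21, and 408 ± 75.04 in B8 at day 7 against 1403 ± 163 at day 0.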
